A study of Mus musculus with 6 samples.

Results

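The genes described here are the vascular connexins and pannexin: the connexin genes Gja1, Gja4, Gja5, Gjc1 and Gjb2 and the pannexin gene Panx1. They are defined by name, 6 of the 55487 genes in the count table, and not by a threshold on a measured value, but the set was drawn up with earlier results of these data known. Bulk RNA-seq after ribosomal RNA depletion was performed on the aortas of 6 male mice, 3 of them Prdm16 iSM KO and 3 controls. All mice carried Myh11-CreERT2, a Y-linked transgene that expresses a tamoxifen-inducible Cre recombinase in smooth muscle. They were 8 weeks old when tamoxifen was started, given at 1 mg per mouse per day on 10 days, and aortas were taken 60 days after a washout of 2 weeks. The iSM KO mice had floxed exon 9 of Prdm16 on both alleles and the controls had wild-type Prdm16. Cre was therefore present and induced in the controls as well, and only cells that express Myh11 were targeted, in a tissue that holds other cell types too. The adventitia, the outer layer of the vessel wall, had been dissected away before RNA was extracted. The comparison asks which transcripts differ in the aorta when smooth muscle lacks Prdm16, a transcriptional regulator.

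Connexins are membrane proteins with several subunits to a channel. Channels of neighbouring cells dock to form gap junctions, through which ions and small molecules pass, and in arteries these junctions couple endothelial cells to each other, smooth muscle cells to each other, and the endothelium to the muscle beneath it. Gja4 (Cx37) and Gja5 (Cx40) are known as the connexins of arterial endothelium, Gja1 (Cx43) is the most widely expressed family member, Gjc1 (Cx45) is found in smooth muscle, and Gjb2 (Cx26) is best known from the cochlea and from epithelia. Pannexins do not form gap junctions in the usual sense. Panx1 forms a channel to the outside of the cell that releases ATP, which acts on purinergic receptors nearby.

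None of the tested connexin genes passed the threshold for a difference between iSM KO and control aortas. Of the 6 genes, 4 had enough counts to be tested (Gja1, Gja4, Gja5 and Gjc1), and 0 of these 4 had an FDR under 0.05 with edgeR, against 7.56% of all 16565 genes tested. DESeq2 and limma-voom also called 0 of the 4, and 1 of them, Gjc1, had an unadjusted p under 0.05 with edgeR. With a fold change over 2 required as well, the count was also 0 of 4, against 2.78% of all tested genes (1.4% higher and 1.38% lower). The lowest FDR was that of Gjc1, whose normalized counts were lower in every iSM KO library than in any control library. Gja5 had the largest fitted difference of the 4 and also the widest spread between mice of the same group. Panx1 and Gjb2 were near the limit of detection at this depth. In the same libraries the normalized count of Prdm16 itself did not overlap between the groups, at 179 to 223 CPM in the controls against 79.8 to 113 CPM in the knockouts.

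CPM, the unit of the normalized counts, relates a gene's count to the TMM-scaled total of its library. Library totals ranged from 24911609 counts in control 3 to 40460467 counts in iSM KO 1. The test was edgeR's quasi-likelihood test over all 6 libraries with Benjamini-Hochberg adjustment over all tested genes, termed FDR. Nothing in the labels gives a batch or pairs the mice, and the spread between libraries of a group includes any difference in dissection. In bulk tissue, fewer cells of a type and less RNA per cell cannot be told apart.

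**Figure D1:**
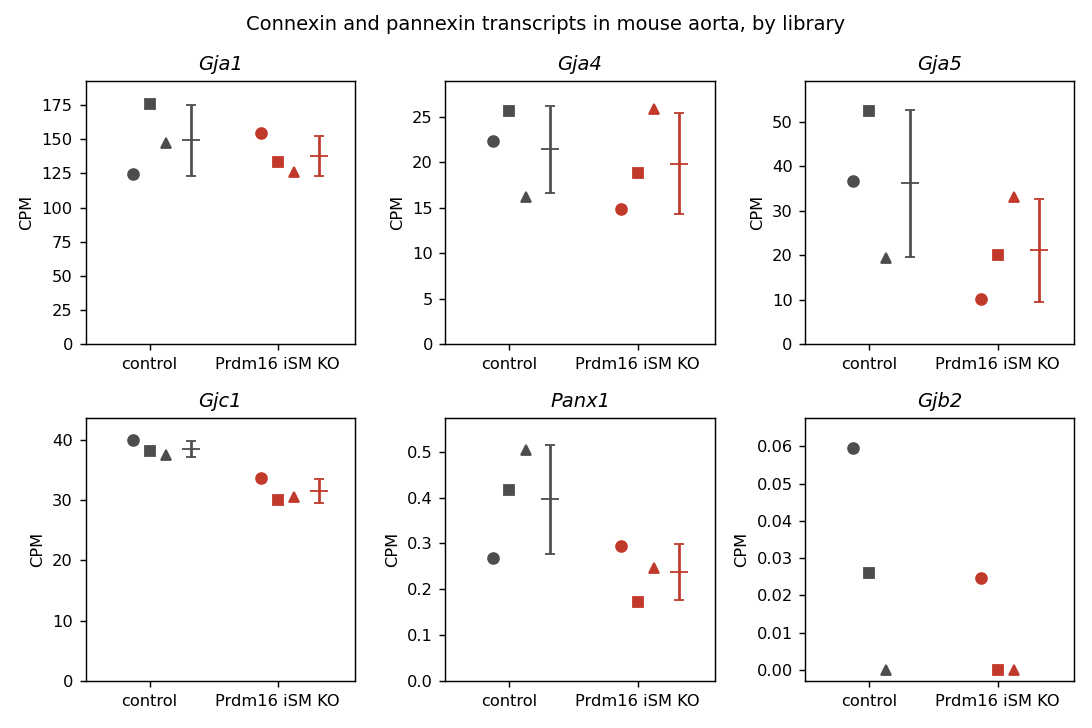
Normalized counts (CPM, linear axis) of the 6 genes in each library, control in grey and Prdm16 iSM KO in red, with circles, squares and triangles for replicates 1, 2 and 3 and a bar for the mean with its SD (n = 3, not drawn for Gjb2). The groups are apart for Gjc1, from 37.4 to 39.9 CPM among controls and from 30.1 to 33.7 CPM among knockouts, and overlap for the other genes.

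Gja1 lies on the plus strand of chromosome 10, from 56377330 to 56402513 (GRCm38), and encodes the connexin that links cells of most tissues, smooth muscle included. It had the highest normalized counts of the 6 genes, at 124, 176 and 147 CPM in controls 1 to 3 and 154, 133.5 and 126 CPM in iSM KO mice 1 to 3. All iSM KO values lay inside the control range. The means were 149 ± 25.7 CPM for controls and 138 ± 14.5 CPM for knockouts (SD, n = 3). The fitted log2 fold change of -0.11 had a standard error of 0.13 and an FDR of 0.660, with a 95% interval from 0.754-fold to 1.14-fold. Without control 2, the highest library, the log2 fold change was 0.03.

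Part of the Gja1 transcript resembles Gja6, a family member on chromosome X that is the only other connexin or pannexin gene of 17 to pass the count filter. Their transcripts Gja1-201 and Gja6-201 align at 76.0% identity over 797 bp, and the longest run of identical bases is 24. How DRAGEN shared ambiguous reads is not given in the sources used here. Gja6 had 5.70, 6.32 and 6.04 CPM among the controls, 6.38, 5.59 and 5.80 CPM among the knockouts, and a log2 fold change of -0.02 (FDR = 0.940). Whether reads of one gene were counted for the other was not tested.

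Gjc1 lies on the minus strand of chromosome 11, from 102799579 to 102819700, and encodes Cx45, a connexin of low conductance known from smooth muscle and the conduction tissue of the heart. It had 39.9, 38.1 and 37.4 CPM in controls 1 to 3 against 33.7, 30.1 and 30.6 CPM in iSM KO mice 1 to 3. All 3 iSM KO values were below all 3 control values, which makes 1 of 4 tested members without overlap, where 27.9% of all tested genes had groups that did not overlap (13% with iSM KO lower). The means were 38.5 ± 1.29 CPM and 31.5 ± 1.99 CPM (SD, n = 3). The fitted log2 fold change of Gjc1 was -0.29 with a standard error of 0.08, or 0.817-fold with a 95% interval of 0.722 to 0.926. Its unadjusted p from edgeR's quasi-likelihood test was 0.00532, and its FDR was 0.0613, so it did not pass the threshold of 0.05. An unadjusted p under 0.05 was found for 22.1% of all tested genes. The exact permutation test of the 3 against 3 CPM values (two-sided) gave p = 0.1, the smallest it can give.

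The direction of Gjc1 did not depend on any of the 13 alternative fits, whose log2 fold changes ran from -0.35 to -0.26. Its FDR over these fits ran from 0.0637 to 0.260 and was never under 0.05. Relative to the summed CPM of 10 smooth muscle markers, Gjc1 amounted to 0.155%, 0.125% and 0.144% in controls and 0.111%, 0.101% and 0.111% in iSM KO. The groups did not overlap in this ratio either, and the log2 difference was -0.39 (exact permutation p = 0.1, 0.2 adjusted over 4 ratios). The share of all tested genes without overlap in their ratio to this sum was not computed. The marker sum itself overlapped between groups, from 25764 to 30414 CPM in the controls against 27549 to 30341 CPM in the knockouts. For Gja1 the ratio to the smooth muscle markers was 0.542% ± 0.052 in controls and 0.471% ± 0.032 in iSM KO (SD, n = 3), with overlapping groups and a log2 difference of -0.20 (exact permutation p = 0.2, 0.267 adjusted over 4 ratios).

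Gja4 and Gja5 are described together, since both are known as connexins of arterial endothelium. Gja4 lies on the minus strand of chromosome 4, from 127311421 to 127314039, and Gja5 on the plus strand of chromosome 3, from 96904693 to 97077416. The 300 bases from 250 before to 50 after each start are shown because the normalized counts of both genes followed the same order of libraries (RefSeq, GRCm38.p6, 5′ to 3′ on the strand of the gene, Gja4 at chr4:127313990-127314289 on the minus strand and Gja5 at chr3:97032152-97032451 on the plus strand). Capitals mark a GC box, spelled GGGCGG.
Gja4: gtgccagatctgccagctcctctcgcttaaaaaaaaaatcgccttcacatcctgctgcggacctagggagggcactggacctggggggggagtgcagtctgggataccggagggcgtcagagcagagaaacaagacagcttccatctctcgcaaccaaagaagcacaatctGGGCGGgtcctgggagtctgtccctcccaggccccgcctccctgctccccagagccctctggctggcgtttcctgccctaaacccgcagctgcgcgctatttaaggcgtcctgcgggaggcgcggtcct
Gja5: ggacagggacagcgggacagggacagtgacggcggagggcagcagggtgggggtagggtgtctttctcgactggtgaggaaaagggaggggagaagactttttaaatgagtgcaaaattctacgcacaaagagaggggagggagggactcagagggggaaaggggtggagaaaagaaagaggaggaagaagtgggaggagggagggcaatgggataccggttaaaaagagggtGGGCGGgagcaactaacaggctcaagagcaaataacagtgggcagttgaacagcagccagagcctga
Each start is that of a RefSeq entry, and the Gja5 window lies inside the gene span given above and not at its first base. Windows of this kind were found for 5 of the 6 genes, all but Gjc1. Besides the GC box, 5 motifs were searched on both strands. An AP-1 site was spelled TGANTCA. For the E-box, a site of basic helix-loop-helix factors, the letters were CACGTG. A T-box factor core site was searched as AGGTGT, and the core promoter element known as the TATA box as TATAAA. The CArG box, bound by serum response factor, was searched by its usual consensus. No match of one motif overlapped a match of another in these windows. In Gja4 the only match was a GC box at base -79 from the start, and in Gja5 a GC box at base -17. A GC box is held by 35.7% of the 32851 promoter windows in the table. Gja1 held an AP-1 site at base -19, as 7.81% of windows do, Gjb2 held GC boxes at bases -211 and -126 and a T-box core site, which 13.7% of windows hold, and Panx1 held none of these letters. A match is a description of the letters and not a site.

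Gja4 had 22.4, 25.6 and 16.2 CPM in controls 1 to 3 and 14.9, 18.8 and 25.9 CPM in iSM KO mice 1 to 3. The lowest and the highest value were both in the iSM KO group. The means were 21.4 ± 4.78 CPM and 19.9 ± 5.59 CPM (SD, n = 3), and the fitted log2 fold change of -0.11 had a standard error of 0.22 and an FDR of 0.795. The 95% interval ran from 0.658-fold to 1.30-fold. The sign rested on single libraries, with a log2 fold change of 0.04 without control 2 and of 0.05 without iSM KO 1.

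Gja5 had 36.7, 52.3 and 19.4 CPM in controls 1 to 3 and 10.2, 19.9 and 33.2 CPM in iSM KO mice 1 to 3. The groups overlapped, since control 3 lay below iSM KO 2 and 3. The means were 36.1 ± 16.5 CPM and 21.1 ± 11.5 CPM (SD, n = 3). The fitted log2 fold change of -0.78 had a standard error of 0.42 and an FDR of 0.317. It equals 0.580-fold with a 95% interval of 0.298 to 1.13, an interval that holds both a change of more than 2-fold and no change. With 1 library left out, the log2 fold change ran from -1.28 without iSM KO 3 to -0.42 without control 2, and the FDR from 0.111 to 0.604. Over all 13 alternative fits its FDR ran from 0.0833 to 0.604.

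**Figure D2:**
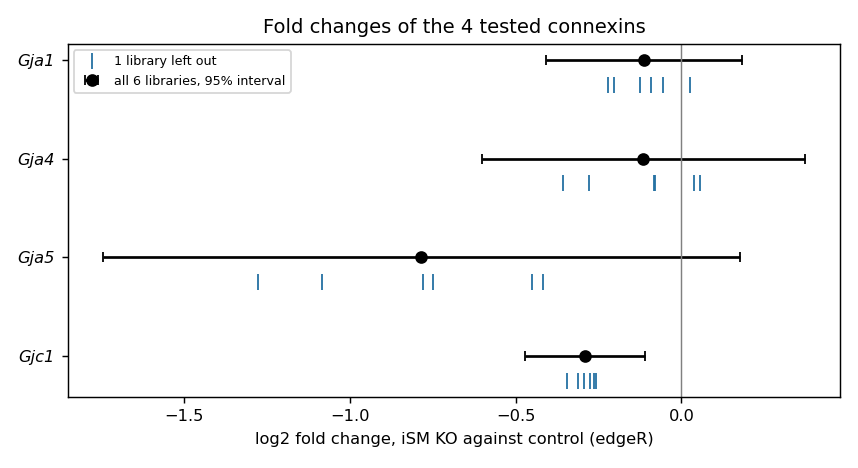
Log2 fold change of the 4 tested connexins, iSM KO against control, from edgeR with all 6 libraries (black points, 95% interval) and with 1 library left out in turn (blue ticks). Only the interval of Gjc1, from -0.47 to -0.11, lies wholly on 1 side of 0, and Gja5 has the widest, from -1.75 to 0.18.

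The spread of Gja5 was itself large for these data. The highest control library had 2.70 times the CPM of the lowest, and the highest iSM KO library 3.26 times that of the lowest. The SD of its log2 CPM was 0.72 in controls and 0.85 in iSM KO, while the median over tested genes was 0.186 and 0.131. Gja5 lay at percentile 95.8 of all tested genes in controls and 98.4 in iSM KO by this SD. Among the 4335 genes within a factor of 2 of its level it lay at percentile 99.4 and 99.7. Gjc1, at a like CPM, had SDs of 1.29 and 1.99 CPM against 16.5 and 11.5 CPM for Gja5.

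The order of the libraries by Gja5 was control 2, control 1, control 3 and, among the knockouts, iSM KO 3, iSM KO 2, iSM KO 1. Gja4 followed the same order in both groups. Of the 15 endothelial cell markers, 11 did so too, against 4.39% of the 16565 tested genes. The summed CPM of these markers was 1414, 1653 and 862 in controls 1 to 3 and 550, 840.5 and 1326 in iSM KO mice 1 to 3. The order was also held by 8 of 20 genes of the arterial endothelial list, by 6 of 9 tested genes of the endothelial vasodilation list, by 3 of 16 purinergic genes, by 2 of 2 tested epithelial markers and by 1 of 9 adipocyte markers. It was held by 0 tested genes of the remaining lists, among them the 10 smooth muscle and the 10 fibroblast markers. Gja1 and Gjc1 did not follow it. Genes of a library share its dissection, RNA and depth, so these counts are a description, and the replicate numbers carry no order.

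Gja5 was closest in pattern to Clec14a, an endothelial surface protein of the C-type lectin domain family, and to Vwf, the von Willebrand factor of endothelial cells and platelets. Likeness was the root mean square difference of log2 CPM over the 6 libraries after each gene was centred on its mean. It was 0.099 for Clec14a and 0.108 for Vwf, with a median of 0.794 over all other tested genes. Gja4 was at 0.494 from Gja5, rank 477 among the tested genes. The nearest genes of Gja4 were Fyn (0.074) and Sertad4 (0.078), those of Gja1 were Zfp623 (0.032) and Zmynd19 (0.041), and those of Gjc1 were Tpst1 (0.034) and Clk1 (0.038), against medians of 0.375, 0.265 and 0.250. The genes nearest to Gja4, Gja1 and Gjc1 are not endothelial or smooth muscle markers of the lists used here.

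**Figure D3:**
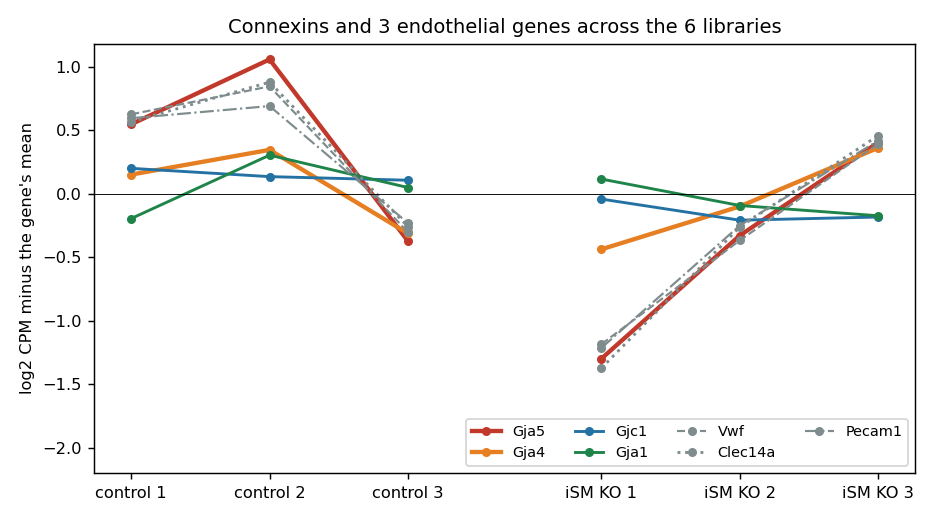
Log2 CPM of 4 connexins and of the endothelial genes Vwf, Clec14a and Pecam1 in each library, centred on each gene's mean over the 6 libraries, with lines that only join points of a group. Clec14a and Vwf are the 2 tested genes nearest to Gja5 in these libraries, so their likeness to it follows from that choice. Gja5 runs with the endothelial genes from library to library, Gja4 moves in the same direction over a smaller range, and Gjc1 and Gja1 do not follow them.

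The median log2 fold change of the 15 endothelial markers was -0.61, beside -0.78 for Gja5. With edgeR 1 of the 15 was higher at an FDR under 0.05 and 0 were lower, as with DESeq2 and limma-voom, and 2 were lower at an unadjusted p under 0.05. The 1 higher gene was Flt1, a receptor for vascular endothelial growth factor, with a log2 fold change of 0.61 (FDR = 0.0175, but 0.0822 without iSM KO 2 and 0.0531 without iSM KO 3). Mean CPM of control and knockout libraries was 345 ± 128 and 210.2 ± 109.8 for Vwf, and 273 ± 85.1 and 179 ± 93.3 for Pecam1, the platelet endothelial adhesion molecule (SD, n = 3). As a share of the marker sum, Gja5 was at 2.59%, 3.16% and 2.25% in controls and at 1.85%, 2.37% and 2.50% in iSM KO. These overlapped, and the log2 difference was -0.25 (exact permutation p = 0.4, 0.4 adjusted over 4 ratios). Against the median of the markers, the log2 difference of Gja5 was -0.48 (exact permutation p = 0.1, the smallest possible). The part of the endothelial content of the samples in the values of Gja5 was not tested.

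Gja4 was set against the same marker sum. Its CPM amounted to 1.58%, 1.55% and 1.88% of the endothelial marker sum in controls and to 2.70%, 2.24% and 1.95% in iSM KO. The groups did not overlap in this ratio, with iSM KO above control by 0.45 on the log2 scale (exact permutation p = 0.1, the smallest possible, and 0.2 adjusted over 4 ratios). The CPM of Gja4 itself overlapped, with means of 21.4 and 19.9. The marker sum below it ran from 862 to 1653 CPM in controls and from 550 to 1326 CPM in iSM KO. The share of all tested genes without overlap in their ratio to this sum was not computed. With the median of the markers in place of their sum, the difference was 0.22 (exact permutation p = 0.4). The ratio of Gja5 to Gja4 in CPM was 1.64, 2.04 and 1.19 in controls and 0.683, 1.06 and 1.28 in iSM KO. iSM KO 3 lay above control 3 in this ratio, so the groups overlapped, and iSM KO 1 was the only library with fewer counts of Gja5 than of Gja4.

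Counts of Gja5 have a further limit. Its exons share 165 bp of 5746 bp with Gpr89, a gene on the opposite strand, and whether counting used the strand is not stated in the sources used here. Gpr89 had 409 to 770 counts in a library, Gja5 had 414 to 2009. The mean CPM of Gpr89 was 18.3 ± 1.51 and 18.2 ± 0.40 (SD, n = 3), and its log2 fold change was -0.01. The part of reads from the shared bases in the counts of Gja5 was not tested.

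Panx1 lies on the minus strand of chromosome 9, from 15002128 to 15045478. It had 9, 16 and 12 counts in controls and 12, 6 and 9 counts in iSM KO, or 0.27, 0.42 and 0.50 CPM and 0.29, 0.17 and 0.25 CPM. It missed the filter, a count over 10 in every library of a group, through control 1. Summed over the group, 37 counts in controls gave 0.386 CPM (exact Poisson 95% interval 0.272 to 0.532) and 27 counts in iSM KO gave 0.241 CPM (0.159 to 0.350). The groups overlapped, the intervals overlapped, and both cover counting error only. In the fit without a filter its log2 fold change was -0.70 with an FDR of 0.654, and with filterByExpr as the filter -0.70 with an FDR of 0.415. Without control 1, the lowest control, the log2 fold change was -0.91 with an FDR of 0.282. There Panx1 passed the filter through controls 2 and 3 only, a selection that favours a lower value in iSM KO. A difference in Panx1 was not detectable at this depth.

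Gjb2 lies on the minus strand of chromosome 14, from 57098600 to 57104702. It had 2, 1 and 0 counts in controls and 1, 0 and 0 counts in iSM KO. These are at or under the 3 counts taken as the floor, so no fold is given. A library with 0 counts allows up to 3 counts, or 0.126 CPM in control 3, 0.086 CPM in iSM KO 2 and 0.082 CPM in iSM KO 3. Of the 17 other connexin and pannexin genes, Gjd3 and Gje1 had no count in any library. Gja6 and Panx2 had the most counts, Panx2 with 3 to 16 counts in a library. Gja3, Gja10, Gjb1, Gjb5, Gjb6, Gjc3, Gjd2, Gjd4 and Panx3 had between 0 and 12 counts in a library.

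Levels of different genes were compared per length, as CPM per kb of merged exons. In controls the order was Gja1 at 14.5 ± 2.51, Gja4 at 12.7 ± 2.83, Gjc1 at 7.69 ± 0.26, Gja5 at 6.28 ± 2.86, Panx1 at 0.066 ± 0.020 and Gjb2 at 0.012 ± 0.012 CPM per kb (SD, n = 3). In iSM KO it was Gja1 at 13.5 ± 1.42, Gja4 at 11.8 ± 3.32, Gjc1 at 6.29 ± 0.40, Gja5 at 3.67 ± 2.01, Panx1 at 0.039 ± 0.010 and Gjb2 at 0.0034 ± 0.0059. Gja1 and Gja4 did not differ beyond their spread, with Gja1 higher in 2 of 3 libraries of each group. Gjc1 and Gja5 overlapped in controls, where Gja5 was higher in 1 of 3 libraries, and did not overlap in iSM KO, where Gjc1 was higher in 3 of 3. The other neighbours in the order did not overlap in either group.

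The place of Gja4 in this order depends on what counts as a gene's length. Merged exons of Gja1 span 10257 bp, since its annotated transcripts differ in their exons, while its longest transcript has 3889 bp and its longest protein-coding transcript 3182 bp. With the longest transcript the control level of Gja1 was 38.3 ± 6.62 CPM per kb, against 12.7 ± 2.83 for Gja4, 11.3 ± 0.38 for Gjc1 and 9.84 ± 4.49 for Gja5. With the longest protein-coding transcript, a choice made after the data were seen, Gja1 was at 46.9 ± 8.09, Gjc1 at 16.6 ± 0.56, Gja4 at 12.7 ± 2.83 and Gja5 at 9.84 ± 4.49 CPM per kb. Gja1 was first by each length, and Gja4 changed places with Gjc1 under the last length.

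As shares of the summed level per kb of merged exons of the 5 connexins, Gja1 took 30.5%, 34.9% and 41.2% in controls and 46.4%, 38.7% and 31.1% in iSM KO. Gja4 took 33.4%, 31.0% and 27.6% in controls and 27.3%, 33.2% and 38.9% in iSM KO. Gja5 took 16.0%, 18.5% and 9.68% in controls and 5.46%, 10.3% and 14.6% in iSM KO. Gjc1 took 20.05%, 15.5% and 21.5% in controls and 20.8%, 17.9% and 15.5% in iSM KO. All shares overlapped between the groups, and the differences in means of 3.21 points for Gja1, 2.41 for Gja4, -4.63 for Gja5 and -0.97 for Gjc1 had exact permutation p of 0.6, 0.7, 0.3 and 0.7, or 0.7 for each after adjustment over the 4 shares. The summed level of the 5 connexins was 41.2 ± 7.23 CPM per kb in controls and 35.2 ± 3.83 in iSM KO (SD, n = 3, exact permutation p = 0.2). The shares depend on the length used. By merged exons the mean control shares were 35.5% for Gja1 and 30.7% for Gja4. With the longest transcript they were 53.3% and 17.6%, and with the longest protein-coding transcript 54.5% and 14.7%.

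**Figure D4:**
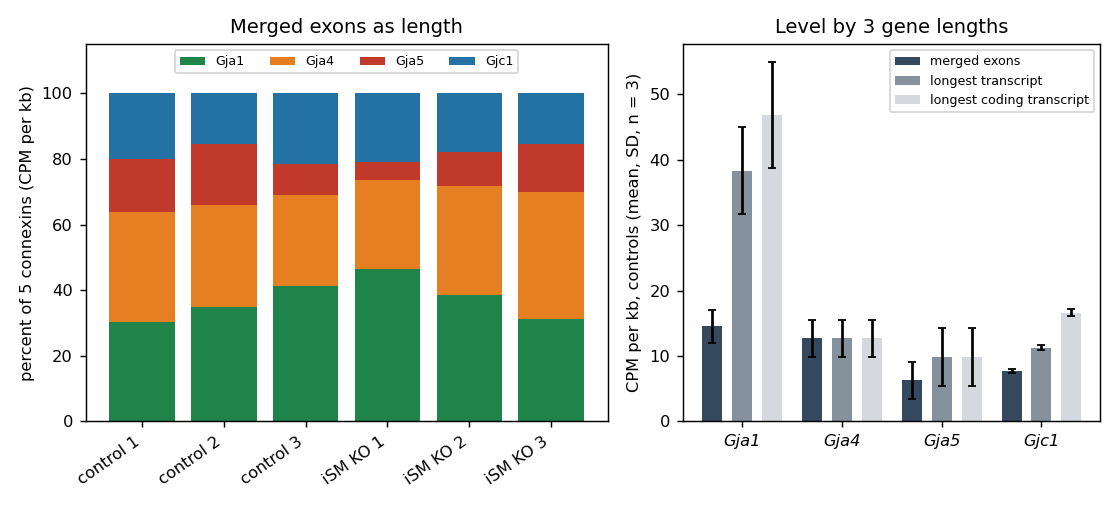
Left, share of each connexin in the summed level per kb of merged exons in each library, with Gjb2 too small to see. Right, control levels in CPM per kb (mean and SD, n = 3) with merged exons, the longest transcript or the longest protein-coding transcript as length, which place Gja1 at 14.5, 38.3 or 46.9.

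Genes around the connexins were read from the same fit in lists. Of 18 partners and trafficking genes, all tested, 5 were higher and 1 was lower at an FDR under 0.05, where 4.26% of all tested genes were higher and 3.3% lower, and their median log2 fold change was 0.16 against -0.01 over all tested genes. Dbn1, the actin-binding protein drebrin that binds Gja1 protein, had 37.6, 33.8 and 30.7 CPM against 64.7, 77.9 and 65.7 CPM, and rose by 1.03 on the log2 scale (FDR = 7.46e-04). Cnst, consortin, which carries connexins to the cell surface, rose by 0.45 (FDR = 0.0176), from 28.5 ± 1.45 CPM among controls to 38.9 ± 3.27 CPM among knockouts (SD, n = 3). Cdh2, the neural cadherin of adherens junctions, rose from 1.11 to 3.10 CPM on average (log2 fold change 1.47, FDR = 0.0200), and Ctnna1, the catenin that ties cadherins to actin, by 0.29 (FDR = 0.0438). Ezr, the membrane linker ezrin, rose by 0.67 (FDR = 0.0470). The lower gene was Ccn3, a matricellular protein that binds Gja1 protein, with 922.8 to 1099.7 CPM among controls against 383 to 427 CPM among knockouts (log2 fold change -1.29, FDR = 1.85e-04). An FDR under 0.05 was kept in 13 of 13 alternative fits by Ccn3 and Dbn1, in 10 by Cnst, in 9 by Cdh2, in 5 by Ezr and in 4 by Ctnna1, and without iSM KO 2 the FDR of Cnst, Cdh2, Ctnna1 and Ezr was 0.0872, 0.0910, 0.179 and 0.172. Tjp1, the scaffold of tight and gap junctions, and the caveolin Cav1 did not pass, with log2 fold changes of 0.35 and -0.10.

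Kinases and a phosphatase known to act on connexin proteins were measured in full. Of these 12 genes, 0 had an FDR under 0.05 with edgeR, where 2 were higher at an unadjusted p under 0.05, 1 passed with DESeq2 and 0 with limma-voom, and their log2 fold changes lay between 0.04 and 0.53 with a median of 0.12. Of the 17 genes of purinergic signalling, the pathway into which pannexin channels release ATP, 16 were tested, 0 were higher and 2 were lower with edgeR, while 3 and 3 passed with DESeq2, 1 and 2 with limma-voom, and 3 and 4 at an unadjusted p under 0.05. Adora1, an adenosine receptor, had 5.64, 7.18 and 5.03 CPM among controls, 0.69, 0.92 and 1.18 CPM among knockouts, and a log2 fold change of -2.69 (FDR = 4.25e-04). The median of the 16 was -0.22.

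Of the 20 genes of the arterial endothelial list, 1 was higher and 1 lower with edgeR, with a median of -0.42. Over all tested genes 4.26% were higher and 3.3% lower. DESeq2 called 1 of the list higher and 2 lower, and limma-voom 1 and 1. At an unadjusted p under 0.05 in edgeR these counts were 1 and 2. Jag2, a Notch ligand, had 10.7 to 13.8 CPM among controls and 1.94 to 4.08 CPM among knockouts (log2 fold change -2.02, FDR = 0.00155). Unc5b, a netrin receptor, had 42.5 to 45.3 CPM among controls and 74.4 to 80.6 CPM among knockouts (log2 fold change 0.83, FDR = 2.86e-04). The groups did not overlap for either gene, and both kept an FDR under 0.05 in 13 of 13 alternative fits, as did Gucy1b1 and Adora1. Of the 9 tested genes of 10 in the vasodilation list, 1 was higher and 0 were lower with edgeR (1 lower with DESeq2, 0 with limma-voom, and 1 at an unadjusted p under 0.05), with a median of -0.39. The higher gene was Gucy1b1, a subunit of the soluble guanylate cyclase of smooth muscle, at 155, 143 and 169.5 CPM among controls and 252, 247 and 222 CPM among knockouts (log2 fold change 0.62, FDR = 0.00451). Of 14 transcription factors of the cardiac conduction system and of connexin genes, 11 were tested, 0 passed with edgeR (2 were higher at an unadjusted p under 0.05, 1 passed with DESeq2 and 0 with limma-voom), and the median was -0.05. The endothelial marker sums of these libraries are given above, and their part in these medians was not tested.

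**Figure D5:**
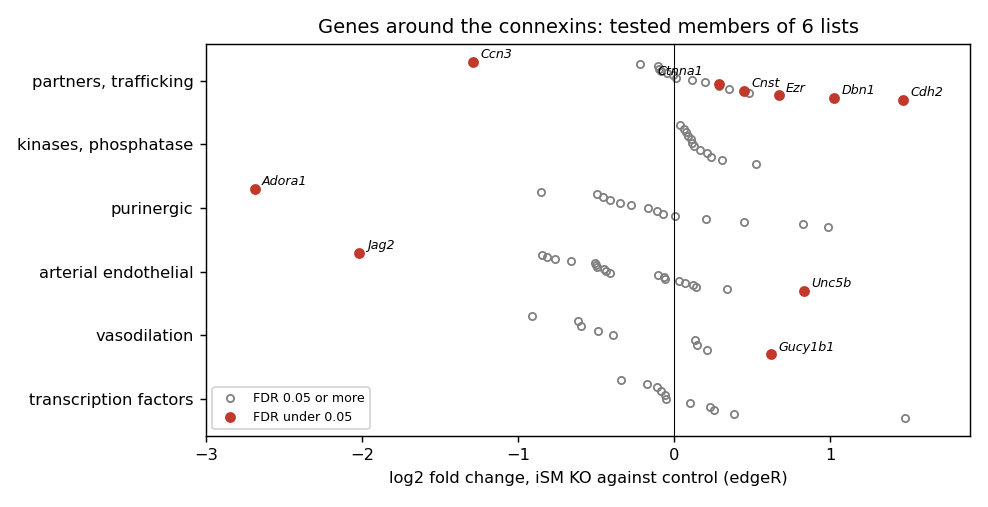
Log2 fold change, iSM KO against control, of the tested genes in 6 lists around the connexins (18, 12, 15, 20, 9 and 11 genes from top to bottom, with 1 tested purinergic gene not drawn), with genes at an FDR under 0.05 filled and named. Partners hold 5 filled genes to the right and 1 to the left of 0, and kinases and transcription factors hold none.

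Markers of other cell types were read as checks of the tissue. Smooth muscle markers were far the most abundant, led by Myh11, with means of 7788 ± 438 CPM among controls and 9011 ± 379 CPM among knockouts (SD, n = 3), and by Acta2, and 2 of 10 were higher at an FDR under 0.05 and 0 lower. Adipocyte markers summed to 102 to 256 CPM among controls and 85.1 to 94.4 CPM among knockouts, and 6 of 9 tested were lower (7 with DESeq2, 1 with limma-voom). Most of the knockout sum was Pnpla2, at 79.7 ± 10.4 CPM among controls and 74.6 ± 4.67 CPM among knockouts (FDR = 0.626). The median log2 fold change of the 9 was -3.26, and Cfd had 34.1 ± 37.4 and 1.55 ± 0.95 CPM (SD, n = 3). Cardiomyocyte markers summed to 137 to 159 CPM and 902 to 919 CPM, with 4 of 6 tested higher. Most of that rise was 1 gene, the troponin Tnnt2, at 13.9 ± 3.44 CPM among controls and 718 ± 22.8 CPM among knockouts (SD, n = 3), followed by the calcium release channel Ryr2 at 127 ± 15.3 and 180.3 ± 26.7 CPM. Mybpc3 and Actn2 were the other higher genes, Myh6 and Tnni3 did not pass, with log2 fold changes of -0.88 and -0.24, and the cardiac genes Myh7, Myl2, Myl7 and Nppa had at most 0.44 CPM in a library. Macrophage markers summed to 39.9 to 43.7 CPM in controls and to 15.4, 15.7 and 46.7 CPM in iSM KO, with 0 of 9 passing (1 with DESeq2), and those of red blood cells and platelets to 49.2 to 110 CPM and 10.6 to 149 CPM, with 0 of 9. Fibroblast markers summed to 761 to 931 CPM and 840.4 to 886 CPM, with a median log2 fold change of -0.65. Of these 10 markers edgeR called 1 lower, DESeq2 called 3 lower and limma-voom called 0, while 7 were lower and 1 was higher in edgeR at an unadjusted p under 0.05. Of 2 tested epithelial markers 1 was lower, of 2 mesothelial markers 1 was higher, of 6 Schwann cell markers 0 passed, and of the lymphocyte markers 0 of 10 were tested, with sums of 0.63 to 1.64 CPM. The most abundant genes of the remaining lists were Pnpla2 and Cfd (adipocyte), Col15a1 and Dcn (fibroblast), Lyz2 and Csf1r (macrophage), Pmp22 and Prx (Schwann cell), Krt18 and Grhl2 (epithelial), Gpm6a and Nkain4 (mesothelial), Hbb-bs and Hba-a1 (red blood cell) and Cd4 and Cd8a (lymphocyte). The adipocyte, cardiomyocyte and epithelial sums differed between the groups without overlap, as Gjc1 and 27.9% of all tested genes did. The epithelial sum was 10.9 to 12.5 CPM among controls and 2.92 to 8.27 CPM among knockouts. The part of these sums in the values of Gjc1 was not tested.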

How the data were processed

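Bulk RNA-seq of 3 control and 3 knockout aortas was used. The values the authors deposited are estimated counts per gene, neither normalized nor rounded, made with Illumina DRAGEN on the mm10 genome. The handling of ambiguous reads and of strand is not given in the sources used here. Every deposited sample column was matched to a sample by name.

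Counts were rounded to whole numbers, and genes with a count over 10 in all libraries of at least 1 group were tested, 16565 of 55487. The groups were compared by edgeR's quasi-likelihood test (version 4.0.16, R 4.3.3, TMM factors, glmQLFit, glmQLFTest, no covariates) with Benjamini-Hochberg adjustment. Intervals of fold changes are at 95%. Totals of 24911609 to 40460467 counts per library set the precision, and Poisson intervals and floors of 3 counts cover counting error only. Gene lengths and overlaps are from GENCODE M21 on GRCm38. Log2 CPM used a prior count of 2. Exact permutation tests used SciPy 1.17.1, and 3 against 3 cannot go below p = 0.1. Gja1 and Gja6 were aligned with blastn 2.17.0. Scripts were tested on simulated data, and no 2 libraries of the same group agreed within sampling noise. Each group was 3 mice, so the tests set the difference between groups against the spread between animals, which includes technical differences.

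The members and lists were chosen with earlier results of these data known. Named are the members, Prdm16, the other family genes with counts, up to 5 genes of each pathway list with an FDR under 0.05 by smallest FDR, the 2 most abundant genes of each marker list, and the 2 genes nearest to each tested member. Flt1, Ezr, Tjp1, Cav1, Gpr89 and the cardiomyocyte markers beyond the top 2 were named outside this rule after their values were seen. Some genes that the rule takes in are not reported here by name. Alternatives were DESeq2 1.42.0, limma-voom (limma 3.58.1), DESeq2 size factors, no TMM, no filter, filterByExpr, a replicate block, each library left out, other lengths and the median of markers.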

Additional observations from a re-analysis of the deposited data

How the results depend on the processing

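The 4 tested connexins stayed at an FDR of 0.05 or more in every alternative fit tried. Leaving out 1 library gave log2 fold changes of -0.22 to 0.026 for Gja1 (0.026 without control 2), -0.36 to 0.055 for Gja4 (0.037 without control 2, 0.055 without iSM KO 1), -1.28 to -0.42 for Gja5 and -0.35 to -0.26 for Gjc1. For Gja6 it gave -0.083 to 0.017 (0.017 without control 2, 0.013 without iSM KO 2). With 1 library left out, the count of genes past both thresholds, 461, ran from 290 to 528, and that at an FDR under 0.05, 1252, from 516 to 1402, with 624 without iSM KO 1 and 516 without iSM KO 2. The highest counts over all alternatives were 631 and 1779, both with no filter. With the replicate number as a block, 351 and 772 genes passed. Deviations of same-numbered libraries correlated at -0.13, -0.05 and -0.11, which with 3 libraries per group cannot decide whether the numbers pair the mice. The block changed no call of a connexin. It ended those of Cnst, Cdh2, Ctnna1, Ezr and Flt1, at FDRs from 0.0524 to 0.135.

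Differences in shares of the 5 connexins ran, with 1 library left out, from -0.64 to 7.03 points for Gja1, -0.47 to 5.33 for Gja4, -7.17 to -2.30 for Gja5 and -2.71 to 0.33 for Gjc1 (0.25 without control 3). Levels per kb in controls and iSM KO were 38.3 and 35.5 for Gja1, 9.84 and 5.75 for Gja5 and 11.3 and 9.22 for Gjc1 with the longest transcript, and 46.9 and 43.4, 9.84 and 5.75, and 16.6 and 13.6 with the longest protein-coding transcript, since these are shorter than the merged exons. Depth limits Panx1 and Gjb2, with at most 16 and 2 counts in a library.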
